A study of Homo sapiens with 21 samples.

Results

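Interferon-stimulated genes are transcripts that cells raise on receiving an interferon signal. Here 42 of them, listed by name, were followed through knockdown and rescue of the EWS/FLI fusion in A673 cells, an established Ewing sarcoma line. All 42 were found among the 57820 genes of the count table, and all 42 passed the low-count filter that left 30549 genes for testing. The 21 RNA-seq libraries formed 7 groups of 3. iLuc cells carried an shRNA against luciferase and an empty vector, and so kept the endogenous fusion. iEF cells received an empty vector and an shRNA aimed past the coding part of EWS/FLI, in its 3′ untranslated region, and were the common baseline. The other 5 groups carried the iEF shRNA and a cDNA. WT-EF was full-length EWS/FLI, mut9 had a large internal deletion of the EWS domain, DAF had tyrosines of the EWS repeats replaced by alanine, DAF-mut9 had tyrosines replaced within the short mut9 form, and Δ22 (del22 in the labels) lacked the EWS domain. The shRNA was delivered by retrovirus on day 1 and the cDNA or empty vector on day 5. All groups were kept until day 16 under puromycin at 2 µg/ml and hygromycin at 400 µg/ml, so that every group carried both viruses. A single line was used. The study describes the replicates, numbered 1 to 3, as repeated knockdown and rescue experiments, and the p-values measure the spread between them.

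Type I and type III interferons bind paired receptor chains whose kinases, JAK1 and TYK2, pass the signal on by phosphorylation. A complex that holds STAT2 and IRF9 then binds the interferon-stimulated response element, whereas interferon gamma acts mainly through the gamma-activated sequence. The induced genes include sensors of viral RNA, enzymes and GTPases that block viral replication, the ubiquitin-like protein ISG15 with its ligases, and the factors IRF1, IRF7, IRF9 and STAT2, which amplify the response.

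Promoter sequences are shown first because the response element is the feature by which these genes are classically recognised. RefSeq promoter windows of GRCh38.p14, from 250 bases before to 50 bases after each annotated start, were at hand for 33 of the 42 members, with DDX58 listed as RIGI. GBP2, IFIT2, IFITM2, IRF7, MX2, OAS2, OASL, TRIM22 and USP18 had no entry. The core of the response element, GAAANNGAAA read on both strands, was present in 23 of these 33 members and in 4.38% of 27305 genes. The gamma-activated sequence, TTCNNNGAA, was present in 10 of 33 members and in 9.38% of genes. An adjoining pair of GGAA units, the unit of the repeats bound by the fusion, was present in 3 of 33 members and in 4.5% of genes. Matches were counted in each window, so the sites of IFI27 and IFI44 count again at a further annotated start. Of these 46 response element matches 8, those of IFI27 among them, overlapped a gamma-activated sequence and 0 overlapped a GGAA pair. The stretches below belong to genes described later, and the capitals mark the response element core or, for IRF1, the gamma-activated sequence.
ISG15, chr1:1013372-1013411, plus strand: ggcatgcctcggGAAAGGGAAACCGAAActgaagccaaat
IFIT1, chr10:89392495-89392541, plus strand: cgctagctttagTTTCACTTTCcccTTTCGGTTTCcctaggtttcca
IFI27, chr14:94110616-94110662, plus strand: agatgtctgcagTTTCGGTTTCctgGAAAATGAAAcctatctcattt
GBP1, chr1:89065314-89065347, minus strand: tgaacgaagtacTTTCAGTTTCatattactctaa
SAMD9, chr7:93118094-93118127, minus strand: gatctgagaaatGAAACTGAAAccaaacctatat
IRF1, chr5:132490877-132490909, minus strand: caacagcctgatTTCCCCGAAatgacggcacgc

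In ISG15 the cores overlap, so that 3 GAAA blocks stand in a row, and in IFIT1 and IFI27 the cores of a pair lie 3 bases apart. IRF1 had a gamma-activated sequence and no core. CMPK2, DDX58, HERC6, SAMD9L, STAT2 and XAF1 were the 6 members with neither motif in this window. A match is a run of letters and not a measured binding site. The log2 fold change of iLuc over iEF, described below, had a median of -3.18 in the 23 members with a core and -3.15 in the 10 without one.

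**Figure D1:**
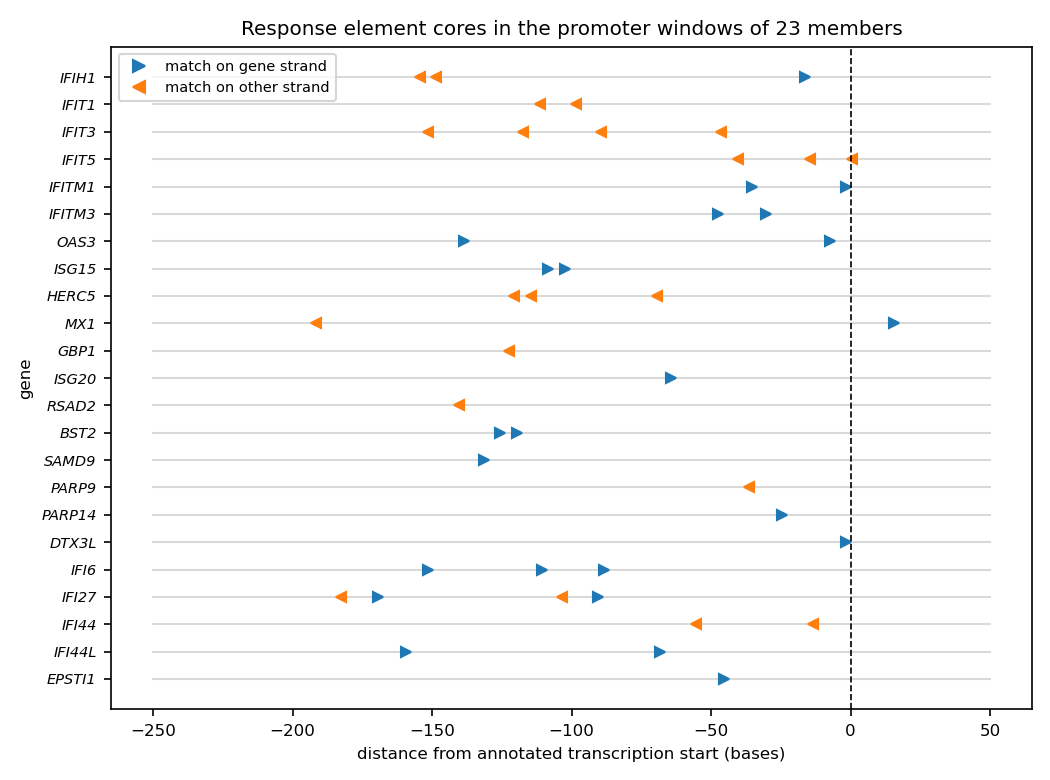
Distance in bases of each response element core (centre of the match) from the annotated transcription start in the 23 members that held one. Where a gene had several annotated starts a match is drawn at its distance from each, and nearly all matches lie upstream of the start.

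Depth and identity of the libraries were examined before the genes. Library totals ran from 32.9 to 46.2 M counts. Levels are given as CPM, a gene's counts in each 1 M of its library's, with library sizes scaled by TMM. FLI1, whose 3′ part is carried by the fusion transcript, was 61.3, 60.6 and 89 CPM in iLuc and 20.8, 20 and 21.1 CPM in iEF. The groups did not overlap, and the log2 fold change of iLuc over iEF was 1.75 ± 0.14, adjusted p = 1.33e-09 in the edgeR quasi-likelihood test, adjusted by Benjamini-Hochberg as are all adjusted p-values here. Of the 5 rescues FLI1 was highest with Δ22 (49.5 ± 11 CPM, SD, n = 3) and lowest with WT-EF (24.5 ± 2.39 CPM), whose difference from iEF was not called (0.24 ± 0.13, adjusted p = 0.196). FLI1 was counted as a gene, and a cDNA need not carry its 3′ untranslated region. These CPM therefore do not measure how much of a construct was expressed. The study shows Western blots of the tagged rescue constructs. Of the 7 Ewing sarcoma markers, NKX2-2, NR0B1, STEAP1, PRKCB, LIPI and CCND1 were each at 7.87 CPM or more in every iLuc library, whereas CD99 was at most 0.1 CPM there. Whether reads of CD99 were lost in alignment or counting was not tested, so this value does not show that its RNA was absent. The 3 epithelial markers summed to between 7.64 CPM in a WT-EF library and 25.1 CPM in an iLuc library. The 2 endothelial markers that were matched summed to at most 1.24 CPM. The 3 plasmacytoid dendritic cell markers, of a classical interferon source, summed to at most 0.048 CPM in any library. IL3RA among them starts at base 1455509 of the X chromosome and CD99 at base 2609228, and the limit given for CD99 applies to IL3RA too. Lying on X is not itself that limit, since NR0B1, at base 30322323, was counted. The 4 leukocyte markers summed to 0.576 to 0.771 CPM in iLuc, 0.884 to 1.08 in WT-EF, 1.19 to 1.63 in iEF, 1.8 to 2.31 in mut9, 1.87 to 2.54 in DAF-mut9, 1.31 to 2.59 in Δ22 and 3.38 to 3.74 in DAF, with CD3E at 0 in all groups but Δ22. This low sum moved with the groups, and its part in the results was not tested.

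Some libraries stood apart in the members as a whole. The iEF library of replicate set 2 was the highest of its group in 38 of 42 members, with a mean log2 CPM 0.517 above the group mean. The mut9 library of set 2 was the lowest of its group in 37 members, at a deviation of -0.579, and the DAF library of set 1 was the lowest in 41 members, at -0.486. The mean log2 CPM of the 42 members was 2.06 to 2.66 in iLuc, 3.40 to 4.23 in WT-EF and 4.64 to 5.68 in mut9. It was 5.59 to 6.42 in DAF, 6.17 to 6.51 in DAF-mut9, 5.79 to 6.41 in Δ22 and 5.96 to 6.74 in iEF. The ranges of iLuc, WT-EF and mut9 did not overlap each other, whereas those of DAF, DAF-mut9, Δ22 and iEF did, and the highest mut9 library lay above the lowest DAF library.

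**Figure D2:**
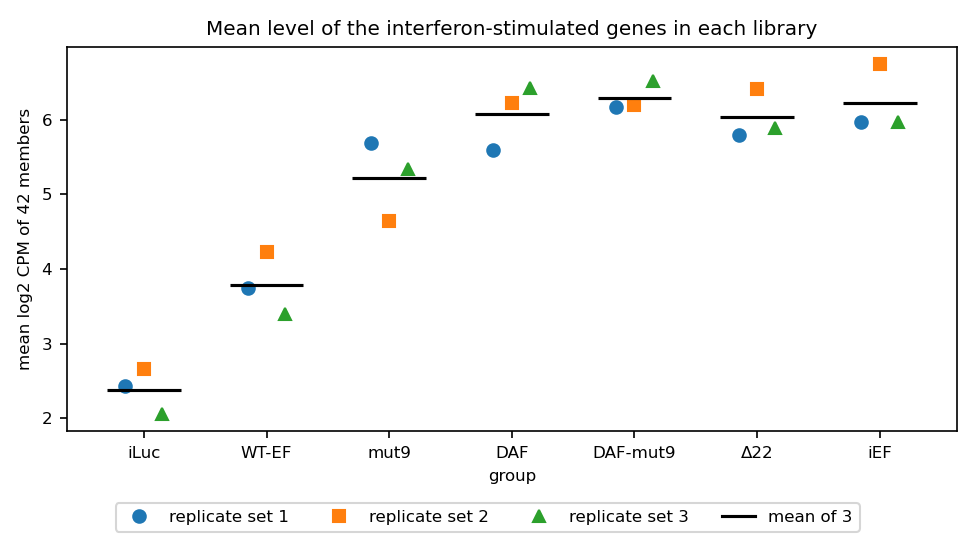
Mean log2 CPM of the 42 interferon-stimulated genes in each library, by group, with a point for each replicate set. iLuc lies lowest at 2.06 to 2.66, followed by WT-EF and mut9, and the mut9 library of set 2 is the lowest of its group.

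The first question was how these genes stood with the endogenous fusion and after its knockdown. All 42 members were lower in iLuc than in iEF and all 42 were called, against 22.4% of all genes tested called lower and 18.7% called higher. The median log2 fold change of the members was -3.20, a 9.18-fold lower level, and the median over all genes was 0.0061. The members ran from 2.3-fold lower for USP18 to 467-fold lower for MX2. In bulk RNA, fewer expressing cells and less RNA in each cell cannot be told apart. The median log2 value was -2.9, -3.46 and -3.56 within sets 1, 2 and 3, with 42 members lower in each. Without the iEF library of set 2, IFITM2 was not called and the other 41 members were.

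MX2, a GTPase at the nuclear envelope that restricts retroviruses and herpesviruses, had the largest difference. It was 0.18, 0.199 and 0.1 CPM in iLuc and 57.4, 126 and 51 CPM in iEF. The iLuc libraries held only a few MX2 counts, and the log2 fold change was -8.87 ± 0.74, adjusted p = 3.97e-09. XAF1, an antagonist of the apoptosis inhibitor XIAP, was 0.642, 1.39 and 0.2 CPM in iLuc and 123, 223 and 95.2 CPM in iEF. The XAF1 groups were far apart (-7.59 ± 0.77, adjusted p = 7.1e-08), but 38.3% of its exon bases are shared with PRAL on the opposite strand, and reads of the pair cannot be told apart because the strand setting of the counting is not given in the sources used here. OAS2, an enzyme that makes the 2′-5′ oligoadenylates that activate RNase L, was 0.308, 0.597 and 0.351 CPM in iLuc and 55.5, 147 and 40 CPM in iEF. It too had no overlap (-7.49 ± 0.70, adjusted p = 2.35e-08).

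IFI27, a mitochondrial protein often used as a blood marker of type I interferon, was 0.539, 1.13 and 0.852 CPM in iLuc and 76.9, 213 and 76.2 CPM in iEF. Its log2 fold change was -7.13 ± 0.72, adjusted p = 7.21e-08. In MX2, XAF1, OAS2 and IFI27 alike the iEF library of set 2 was far above the other iEF libraries. HERC6, a relative of the ISG15 ligase, was 0.539, 0.663 and 0.451 CPM in iLuc and 55.7, 54.9 and 45.9 CPM in iEF. HERC6 showed a wide gap with close iEF libraries (-6.55 ± 0.44, adjusted p = 1.93e-10). SAMD9L, an antiviral protein that restrains growth, was 1.82, 1.48 and 1.05 CPM in iLuc and 130, 147 and 113 CPM in iEF. Both SAMD9L groups were tight, and the log2 fold change was -6.49 ± 0.29, adjusted p = 7.25e-13.

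The transcription factors of the response were lower by less. STAT2, the transducer specific to type I and III interferons, was 44.7, 51.8 and 37 CPM in iLuc and 93.6, 173 and 96.8 CPM in iEF (-1.43 ± 0.17, adjusted p = 9.8e-07). IRF9, the DNA-binding partner of STAT2, was 1.57, 1.7 and 1.05 CPM in iLuc and 3.5, 4.22 and 4.16 CPM in iEF (-1.45 ± 0.22, adjusted p = 1.46e-05). Neither factor overlapped between the groups, although 27.2% of IRF9 exon bases are shared with other genes. IRF7, the factor that amplifies interferon transcription, was 2.57, 2.43 and 1.88 CPM in iLuc and 9.55, 16.9 and 9.57 CPM in iEF (-2.37 ± 0.29, adjusted p = 9.97e-07). IRF1, an early factor of the interferon gamma response, was 11.2, 21.7 and 5.94 CPM in iLuc and 68.8, 170 and 79.4 CPM in iEF (-3.05 ± 0.33, adjusted p = 1.56e-07). IRF1 fell the most of the 4 factors, and 22.9% of its exon bases are shared with opposite-strand genes.

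The widely used effectors and marker genes of the response were lower as well. ISG15, the ubiquitin-like modifier, was 13.9, 13.3 and 9.7 CPM in iLuc and 89.4, 128 and 86.6 CPM in iEF (-3.03 ± 0.27, adjusted p = 1.13e-08). IFIT1, which binds viral RNA with an incompletely methylated cap, was 8.3, 7.14 and 4.11 CPM in iLuc and 183, 221 and 198 CPM in iEF (-4.93 ± 0.38, adjusted p = 1.33e-09). For both genes every iLuc library was far below every iEF library. MX1, a cytoplasmic GTPase active against influenza virus, was 3.18, 3.82 and 1.25 CPM in iLuc and 165, 381 and 139 CPM in iEF (-6.34 ± 0.59, adjusted p = 2.09e-08). OAS1, a relative of OAS2, was 7.73, 8.31 and 4.43 CPM in iLuc and 70.8, 90 and 64.6 CPM in iEF (-3.46 ± 0.36, adjusted p = 1.25e-07). MX1 had the widest spread within iEF of these 4 genes, again through set 2.

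By family, the median log2 fold change was -4.94 for the 6 IFI genes with EPSTI1, -4.40 for the 4 large GTPases, -4.31 for the 4 OAS proteins, -4.26 for the 8 other antiviral effectors and -3.76 for the 4 IFIT proteins. It was -3.22 for the RNA sensors DDX58 and IFIH1, -3.01 for the 4 genes of the ISG15 system, -2.83 for the 3 IFITM proteins, -2.63 for PARP9, PARP14 and DTX3L, and -1.91 for the 4 transcription factors. The smallest differences were those of USP18, the protease that removes ISG15 (-1.20), and of IFIT5 (-1.36). Levels of different genes can be compared only per length, and here only roughly. The length taken was that of all annotated exons of a gene joined, 936 bases for IFI6 and 17984 for MX1. It can exceed the length of any single transcript, which lowers the value, so the ranking depends in part on the annotation. Per kilobase of exon the highest iEF level was that of IFI6 at 276 CPM, followed by ISG15 at 116, IFI44 at 84.4, IFIT3 at 70.9 and PARP14 at 60.5, and the lowest were IFITM2 at 0.816 and IRF9 at 0.612. Values of DDX58 and IFI6, with 43.2% and 23.1% of exon bases shared with another gene of the same strand, and of IFITM1, IFITM2, IFITM3 and USP18, which have near-identical relatives, are uncertain.

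**Figure D3:**
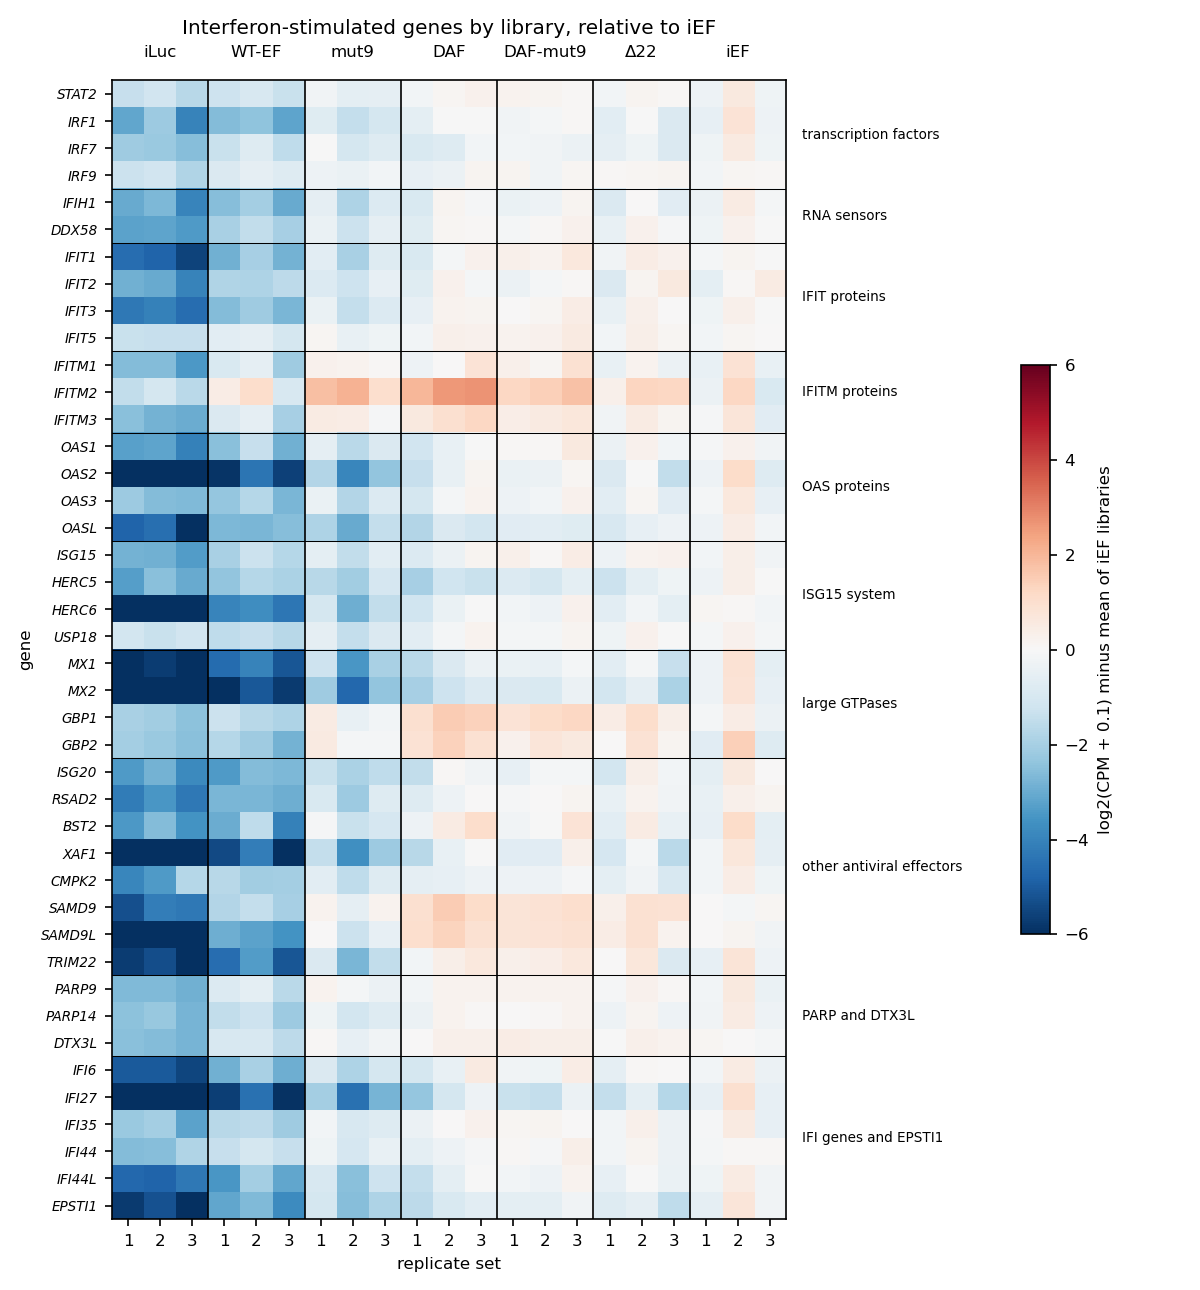
Level of each of the 42 members in each of the 21 libraries, as log2(CPM + 0.1) minus the mean of the iEF libraries, with colours limited to 6 in each direction. All members are lower in iLuc, nearly all are lower in WT-EF, and in the mut9 columns the library of set 2 is the lowest of its group for 37 members.

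**Figure D4:**
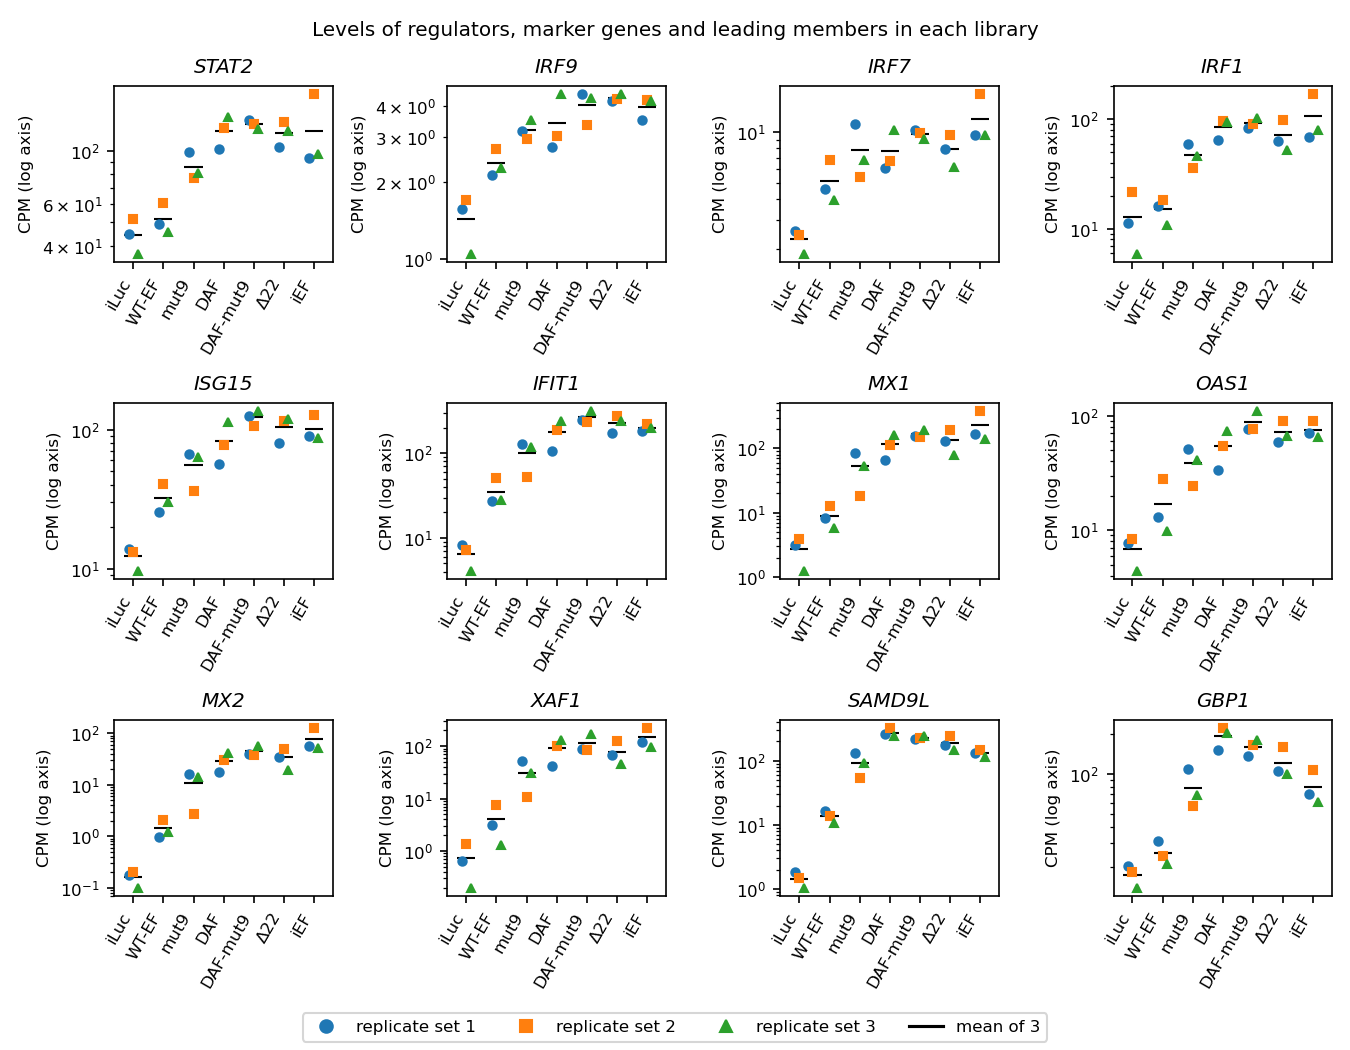
CPM on a log axis of 12 members in every library by group. MX2 runs from 0.1 CPM in an iLuc library to 126 CPM in an iEF library, and GBP1 and SAMD9L are higher with DAF than in any iEF library.

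Other genes of the pathway were listed by function and examined beside the members. Of 36 tested, 26 were lower and 2 were higher in iLuc than in iEF, against 22.4% and 18.7% of all genes. Their median log2 fold change was -1.40. IFNB1, the gene of interferon beta, had 0, 1 and 0 counts in iLuc and 20, 78 and 72 counts in iEF. Against a floor of 3 counts in each library IFNB1 was at least 22.2-fold lower in iLuc. IFNL1, a type III interferon, had 0 counts in every iLuc library and 14, 22 and 18 counts in iEF, at least 6.87-fold lower. IFNG, the gene of interferon gamma, had 0 counts in both groups. The iEF library of set 2 had the most IFNB1 counts of its group and was the highest iEF library in 38 of 42 members. The iEF library of set 1 had less IFNB1 than that of set 3, 0.467 against 1.95 CPM, while MX1, IFIT1 and ISG15 were at similar levels in sets 1 and 3. Whether the members follow IFNB1 was not tested.

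Of the receptor chains, IFNAR1 (-0.92 ± 0.13, adjusted p = 8.28e-06), IFNGR1 (-1.73 ± 0.17, adjusted p = 6.81e-08), IFNGR2 (-1.42 ± 0.13, adjusted p = 2.46e-08) and IL10RB (-0.63 ± 0.18, adjusted p = 0.00724) were lower in iLuc, IL10RB with an overlap of the groups. IFNLR1 was 6.37, 5.75 and 5.54 CPM in iLuc and 3.52, 4.29 and 2.97 CPM in iEF, and so was higher (0.72 ± 0.25, adjusted p = 0.0283), while IFNAR2 was not called (-0.25 ± 0.22, adjusted p = 0.399). JAK1 was the other higher gene, at 1170, 1040 and 790 CPM in iLuc and 642, 606 and 514 CPM in iEF (0.76 ± 0.10, adjusted p = 1.67e-06). TYK2 (0.045 ± 0.11, adjusted p = 0.788) and IRF3, the factor that starts interferon transcription (-0.10 ± 0.13, adjusted p = 0.602), were not called. The leading lower genes of this list were the feedback inhibitors SOCS3 (-3.50 ± 0.24, adjusted p = 2.76e-10) and SOCS1 (-3.23 ± 0.34, adjusted p = 1.44e-07), the antibody receptor TRIM21 (-2.54 ± 0.20, adjusted p = 1.38e-09) and NLRC5, which drives class I antigen presentation genes (-2.37 ± 0.18, adjusted p = 7.39e-10).

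The rescue with full-length fusion was then compared with iEF. With WT-EF 41 of 42 members were lower and 0 were higher, against 16.9% of all genes called lower and 11.4% called higher. The median log2 fold change was -2.23, a 4.69-fold lower level. The exception was IFITM2 (0.17 ± 0.43, adjusted p = 0.818). This comparison shares the iEF libraries with the preceding one, so the values stand side by side and are not independent. MX2 was 0.985, 2.03 and 1.23 CPM with WT-EF, above every iLuc and below every iEF library (-5.76 ± 0.58, adjusted p = 1.83e-07). OAS2 was 1.06, 3.22 and 1.3 CPM (-5.40 ± 0.60, adjusted p = 6.85e-07). IFI27 was 2.07, 4.77 and 1.69 CPM (-5.39 ± 0.64, adjusted p = 1.64e-06). In these genes the WT-EF library of set 2 was the highest, as it was in XAF1 at 3.15, 7.62 and 1.28 CPM (-5.23 ± 0.66, adjusted p = 3.21e-06), and all were below iEF.

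Of the regulators, STAT2 was 49.2, 60.2 and 45.6 CPM with WT-EF (-1.21 ± 0.17, adjusted p = 1.61e-05). IRF9 was 2.14, 2.71 and 2.28 CPM (-0.73 ± 0.21, adjusted p = 0.0118). IRF7 was 4.56, 6.8 and 3.95 CPM (-1.23 ± 0.27, adjusted p = 0.00172). These 3 factors fell by less than IRF1, which was 16.1, 18.2 and 10.9 CPM (-2.76 ± 0.32, adjusted p = 1.28e-06), and none of the 4 overlapped iEF. ISG15 was 25.5, 40.4 and 30.1 CPM (-1.67 ± 0.25, adjusted p = 3.5e-05). IFIT1 was 27, 50.8 and 27.9 CPM (-2.52 ± 0.34, adjusted p = 6.77e-06). MX1 was again the most changed of the common markers, at 8.24, 12.6 and 5.82 CPM (-4.66 ± 0.53, adjusted p = 1.03e-06), and OAS1 was 13, 28.1 and 9.87 CPM (-2.18 ± 0.34, adjusted p = 4.91e-05). IFNB1 had at most 3 counts in a WT-EF library, at least 22.2-fold lower than in iEF. Of the 36 other pathway genes 22 were lower and 1, JAK1, was higher, against 16.9% and 11.4% of all genes.

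WT-EF cells were also compared with iLuc cells, to ask how far the rescue differed from cells that had not been depleted. Of 42 members 29 were higher with WT-EF and 0 were lower, against 9.78% of all genes called higher and 8.52% called lower, with a median log2 fold change of 1.45. SAMD9L led at 16.7, 13.9 and 10.7 CPM with WT-EF (3.24 ± 0.27, adjusted p = 3.1e-08), followed by MX2 (3.10 ± 0.84, adjusted p = 0.0119). SAMD9, the paralog of SAMD9L, was 59, 74.3 and 49.9 CPM with WT-EF and 5.09, 11.2 and 10.2 CPM in iLuc (2.81 ± 0.24, adjusted p = 5.61e-08). IFI6, a protein that limits flavivirus replication, was 34, 65.4 and 32.2 CPM with WT-EF and 7.45, 7.45 and 5.39 CPM in iLuc (2.67 ± 0.37, adjusted p = 2.33e-05). None of these 4 genes overlapped between the groups. ISG15 (1.36 ± 0.26, adjusted p = 0.000694), IFIT1 (2.41 ± 0.35, adjusted p = 3.74e-05), MX1 (1.68 ± 0.52, adjusted p = 0.0277), OAS1 (1.28 ± 0.35, adjusted p = 0.0122), IRF7 (1.14 ± 0.29, adjusted p = 0.00713) and IRF9 (0.71 ± 0.22, adjusted p = 0.0265) were higher, and STAT2 (0.22 ± 0.17, adjusted p = 0.456) and IRF1 (0.29 ± 0.31, adjusted p = 0.605) were not called. USP18 was the 1 member whose mean was lower with WT-EF than in iLuc, at 17.9, 19.9 and 16.3 CPM against 24, 20.2 and 23.2 CPM, and it was not called (-0.31 ± 0.21, adjusted p = 0.358).

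With mut9, 21 of 42 members were lower than in iEF and 1 was higher, against 8.33% and 6.22% of all genes. The median log2 fold change was -0.88. IFI27 was 26.5, 4.71 and 15.7 CPM with mut9 (-2.76 ± 0.57, adjusted p = 0.00181). MX2 was 16.1, 2.65 and 13.8 CPM (-2.75 ± 0.49, adjusted p = 0.000497). OAS2 was 20.4, 4.44 and 13.3 CPM (-2.44 ± 0.52, adjusted p = 0.00234). In these genes, and in XAF1 at 51.3, 10.8 and 30.2 CPM (-2.08 ± 0.57, adjusted p = 0.0159), every mut9 library was below every iEF library and the mut9 library of set 2 was by far the lowest. Without that library 11 members were called in all, and without the mut9 library of set 3 14 were. Within sets 1, 2 and 3 the median log2 value was -0.22, -1.86 and -0.59.

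IFITM2, a membrane protein that blocks virus entry, was the member that rose with mut9, at 3.84, 4.69 and 2.21 CPM against 0.794, 2.63 and 0.513 CPM in iEF (1.59 ± 0.41, adjusted p = 0.0114). The groups overlapped through the iEF library of set 2. ISG15 was 67.2, 36 and 64 CPM (-0.85 ± 0.25, adjusted p = 0.0249). IFIT1 was 130, 52.5 and 117 CPM (-0.98 ± 0.32, adjusted p = 0.044). Both fell, as did MX1 at 85.7, 18 and 52.8 CPM (-2.0 ± 0.48, adjusted p = 0.00649) and IRF1 at 59.4, 35.8 and 46.3 CPM (-1.04 ± 0.31, adjusted p = 0.0248). OAS1 at 51.1, 24.3 and 41.2 CPM (-0.90 ± 0.33, adjusted p = 0.0746) and STAT2 at 98.9, 76.6 and 81 CPM (-0.46 ± 0.17, adjusted p = 0.0793) were not called. Nor were IRF7 at 11.2, 5.43 and 6.83 CPM (-0.59 ± 0.27, adjusted p = 0.175) and IRF9 at 3.19, 2.95 and 3.52 CPM (-0.30 ± 0.21, adjusted p = 0.413). IFNB1 was lower with mut9, at 0.231, 0.0491 and 0.262 CPM (-2.91 ± 0.53, adjusted p = 0.000543). Among the 36 other pathway genes 11 were lower and 1, JAK1, was higher, against 8.33% and 6.22% of all genes.

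With DAF, 5 of 42 members were higher than in iEF and 2 were lower, against 3.41% of all genes called higher and 4.02% called lower, and the median log2 fold change was -0.22. IFITM2 was 4.45, 6.9 and 7.35 CPM with DAF (2.42 ± 0.42, adjusted p = 0.000913). GBP1, a GTPase that attacks intracellular pathogens, was 152, 221 and 204 CPM with DAF and 70.5, 106 and 61.2 CPM in iEF (1.30 ± 0.23, adjusted p = 0.00114). SAMD9 was 386, 573 and 421 CPM with DAF and 202, 183 and 213 CPM in iEF (1.19 ± 0.22, adjusted p = 0.00199). In these genes and in SAMD9L, at 259, 324 and 242 CPM with DAF (1.09 ± 0.22, adjusted p = 0.00361), every DAF library was above every iEF library. IFITM3, a relative of IFITM2, overlapped iEF (0.93 ± 0.28, adjusted p = 0.0435), and its call was lost in 6 of 13 alternatives.

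The lower members with DAF were HERC5, the main ligase for ISG15, and OASL, which enhances RNA sensing. HERC5 was 3.38, 5.82 and 5.32 CPM with DAF and 11, 17.2 and 13.5 CPM in iEF, with no overlap (-1.54 ± 0.24, adjusted p = 0.000361). OASL was 10.2, 19.4 and 16.1 CPM with DAF and 28.3, 48 and 31.3 CPM in iEF, also with no overlap (-1.24 ± 0.33, adjusted p = 0.0227), and its call was lost in 3 of 13 alternatives. The regulators were not called, with STAT2 at 102, 124 and 138 CPM, IRF9 at 2.76, 3.04 and 4.44 CPM, IRF7 at 6.14, 6.72 and 10.3 CPM and IRF1 at 65.1, 96.7 and 94.7 CPM. Nor were the common markers, with ISG15 at 56.9, 77.6 and 113 CPM, IFIT1 at 106, 186 and 242 CPM, MX1 at 66.9, 114 and 164 CPM and OAS1 at 33.9, 54.6 and 73.6 CPM. In all 8 genes the DAF library of set 1 was the lowest of its group and the groups overlapped. IFNB1 was lower with DAF at 0.164, 0.693 and 0.344 CPM, although it overlapped iEF (-1.93 ± 0.48, adjusted p = 0.0147). Of the 36 other pathway genes IFNB1 was the 1 lower gene, against 4.02% of all genes. The 3 higher genes, against 3.41% of all genes, were JAK1, the sensor TLR3 and TMEM173, the adaptor STING.

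The DAF-mut9 values all rest on reading the count columns named mut9d as DAF-mut9. With DAF-mut9, 3 of 42 members were higher than in iEF and 0 were lower, against 1.26% and 2.14% of all genes, and the median log2 fold change was 0.051. GBP1 was 137, 164 and 180 CPM (1.05 ± 0.23, adjusted p = 0.0143). SAMD9 was 342, 361 and 394 CPM (0.87 ± 0.22, adjusted p = 0.0336). In both, and in SAMD9L at 219, 230 and 241 CPM (0.84 ± 0.22, adjusted p = 0.0374), every library was above every iEF library. No member was called without the iEF or the DAF-mut9 library of set 3, and 1 was called without the iEF library of set 1, without the DAF-mut9 library of set 1 or 2, or with no replicate block. STAT2 at 134, 130 and 123 CPM, IRF9 at 4.44, 3.35 and 4.3 CPM, IRF7 at 10.3, 9.91 and 9.15 CPM and IRF1 at 83.1, 90.5 and 102 CPM were not called. ISG15 at 125, 106 and 136 CPM, IFIT1 at 246, 234 and 315 CPM, MX1 at 156, 150 and 192 CPM and OAS1 at 77.1, 77.3 and 110 CPM were not called either, although every IFIT1 library was above iEF. Of the 36 other pathway genes 0 were higher and 1, the phosphatase gene PTPN6, was lower.

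With Δ22, 0 of 42 members were called against iEF in the edgeR test, where 0.881% of all genes were called higher and 1.79% lower. At an unadjusted p below 0.05 there were 9 members, and DESeq2 called 0. The median log2 fold change was -0.12, with values from -1.31 to 0.89. A fit of the compared groups alone called 11 members, 3 higher and 8 lower, and without the iEF library of set 2 1 member was called. STAT2 was 104, 132 and 121 CPM, IRF9 4.17, 4.24 and 4.44 CPM, IRF7 7.98, 9.58 and 6.21 CPM and IRF1 63.5, 97.5 and 52.9 CPM with Δ22. ISG15 was 79.8, 116 and 119 CPM, IFIT1 171, 275 and 241 CPM, MX1 131, 193 and 77.9 CPM and OAS1 58.4, 90 and 67.1 CPM. All 8 overlapped iEF. Of the 36 other pathway genes 0 were called. A p above the threshold does not show that Δ22 and iEF were alike.

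**Figure D5:**
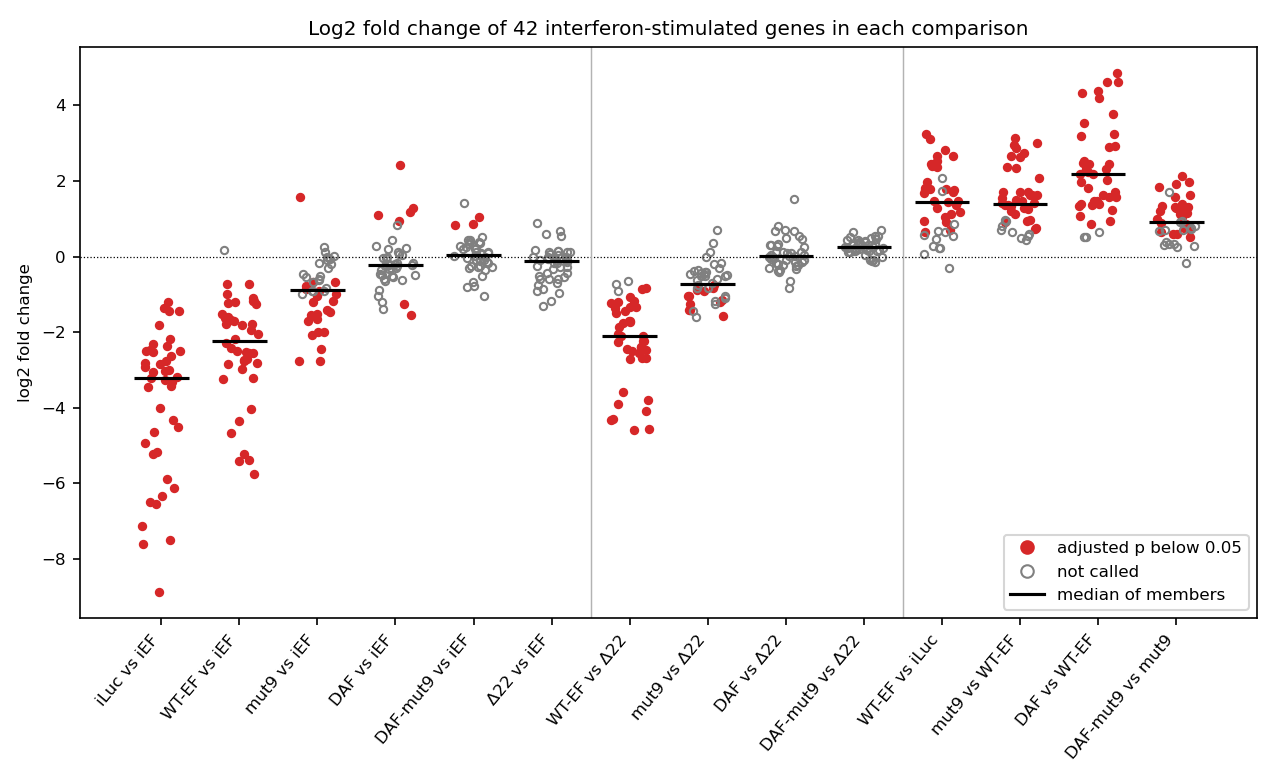
Log2 fold change of each of the 42 members in 14 comparisons, in red for members called at an adjusted p below 0.05 and in grey for the others, with a black bar for the median. The bars stand at -3.20 for iLuc, -2.23 for WT-EF and -0.88 for mut9 against iEF, and at -0.22, 0.051 and -0.12 for DAF, DAF-mut9 and Δ22.

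Δ22 cells also received a cDNA and give a baseline that does not use the iEF libraries. WT-EF had 39 of 42 members lower than Δ22 and 0 higher, against 14.5% and 10.7% of all genes, with a median log2 fold change of -2.10. MX2 led (-4.58 ± 0.56, adjusted p = 2.62e-06), at 33.7, 49 and 19.1 CPM with Δ22, followed by OAS2 (-4.55 ± 0.58, adjusted p = 5.08e-06) at 38, 67.9 and 24.5 CPM and XAF1 (-4.33 ± 0.63, adjusted p = 2.54e-05) at 67.4, 125 and 45.5 CPM. TRIM22, an antiviral ubiquitin ligase, was 1.63, 3.87 and 1.06 CPM with WT-EF and 41, 65.8 and 22.1 CPM with Δ22 (-4.30 ± 0.50, adjusted p = 1.44e-06). None of these 4 genes overlapped. Comparisons of mut9, DAF and DAF-mut9 with Δ22 were added after the other results were known. mut9 had 12 members lower than Δ22 and 0 higher, against 4.64% and 4.52% of all genes, with a median of -0.72. The leading members were MX2 (-1.57 ± 0.48, adjusted p = 0.0421), TRIM22 (-1.42 ± 0.44, adjusted p = 0.0437), OASL (-1.40 ± 0.33, adjusted p = 0.00868) and the exonuclease ISG20 (-1.24 ± 0.29, adjusted p = 0.00738). Of these 4 only TRIM22 overlapped. That count was 1 without the mut9 library of set 2, 2 without the Δ22 library of set 2, 6 without the mut9 library of set 3 and 25 without the mut9 library of set 1.

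DAF had 0 members called against Δ22 by edgeR in either direction, where 0.789% of all genes were called higher and 0.183% lower. An unadjusted p below 0.05 was found for 6 members, and DESeq2 called 2. DAF-mut9 had 0 members called against Δ22 by edgeR, where 0% of all genes were called higher and 0% lower, 0 members had an unadjusted p below 0.05 and DESeq2 called 0. SAMD9 was 247, 374 and 358 CPM and SAMD9L 176, 243 and 148 CPM with Δ22, and GBP1 was 105, 159 and 99.2 CPM. Every Δ22 library was above iEF in SAMD9 and SAMD9L, whereas GBP1 overlapped.

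The constructs were compared directly, across a shorter EWS domain and replaced tyrosines. Mean FLI1 was 24.5 CPM with WT-EF, 30.7 with mut9, 37 with DAF and 36.3 with DAF-mut9. FLI1 was called higher with DAF than with WT-EF (0.60 ± 0.13, adjusted p = 0.00173) but not with mut9 (0.33 ± 0.13, adjusted p = 0.17). Construct sequence and FLI1 level thus differed together, and the part of either was not tested. With mut9 33 of 42 members were higher than with WT-EF and 0 were lower, against 4.95% and 1.2% of all genes, and the median log2 fold change was 1.39. XAF1 (3.15 ± 0.62, adjusted p = 0.00337), MX2 (3.01 ± 0.55, adjusted p = 0.00162) and OAS2 (2.96 ± 0.57, adjusted p = 0.0028) led with TRIM22, which was 22.6, 6.06 and 14.4 CPM with mut9 (2.87 ± 0.49, adjusted p = 0.000951). In each the lowest mut9 library was above the highest WT-EF library. STAT2 (0.75 ± 0.17, adjusted p = 0.0102), IRF1 (1.72 ± 0.31, adjusted p = 0.00159), IFIT1 (1.54 ± 0.33, adjusted p = 0.00621), MX1 (2.66 ± 0.50, adjusted p = 0.00223) and OAS1 (1.27 ± 0.34, adjusted p = 0.0269) were higher, OAS1 with an overlap of the groups and a log2 value of -0.21 in the lowest set, and ISG15 (0.82 ± 0.25, adjusted p = 0.0597), IRF7 (0.64 ± 0.28, adjusted p = 0.211) and IRF9 (0.44 ± 0.21, adjusted p = 0.286) were not called. The count was 14 without the mut9 library of set 1 and 18 without the WT-EF library of set 3. The median was 1.87, 0.42 and 1.93 within sets 1, 2 and 3, lowest where the mut9 library stood apart.

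With DAF 39 of 42 members were higher than with WT-EF and 0 were lower, against 14.3% and 10.6% of all genes, and the median log2 fold change was 2.19. OAS2 was 26.6, 50.7 and 77.4 CPM with DAF (4.86 ± 0.59, adjusted p = 3.13e-06). TRIM22 was 36.8, 51.4 and 62.6 CPM (4.63 ± 0.51, adjusted p = 8.94e-07). XAF1 was 42.7, 99.9 and 134 CPM (4.62 ± 0.65, adjusted p = 1.71e-05). None of these overlapped WT-EF, nor did MX2 at 17.9, 30.1 and 40.3 CPM (4.38 ± 0.55, adjusted p = 5.06e-06). The 3 members not called were IRF7 (0.64 ± 0.28, adjusted p = 0.102), IRF9 (0.51 ± 0.21, adjusted p = 0.0854) and HERC5 (0.51 ± 0.25, adjusted p = 0.15). STAT2 (1.24), IRF1 (2.53), ISG15 (1.36), IFIT1 (2.33), MX1 (3.78) and OAS1 (1.71, log2 fold changes) were higher. IFNB1, with at most 3 counts in a WT-EF library, was 1 of the 21 higher genes among the 36 other pathway genes, of which 1, PTPN6, was lower.

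With DAF-mut9 26 of 42 members were higher than with mut9 and 0 were lower, against 5.15% and 4.68% of all genes, and the median log2 fold change was 0.91. OAS2 was 51.5, 54.4 and 74 CPM with DAF-mut9 (2.14 ± 0.51, adjusted p = 0.00754). MX2 was 38.7, 38.2 and 56.5 CPM (1.98 ± 0.48, adjusted p = 0.00845). TRIM22 was 50.7, 54.5 and 63.4 CPM (1.92 ± 0.44, adjusted p = 0.00586). In these, and in XAF1 at 86.8, 86.6 and 168 CPM (1.83 ± 0.56, adjusted p = 0.043), every DAF-mut9 library was above every mut9 library. IFIT1 (1.38), ISG15 (1.13), MX1 (1.64), OAS1 (1.15) and STAT2 (0.59, log2 fold changes) were higher, and IRF1 (0.94 ± 0.30, adjusted p = 0.055), IRF7 (0.32 ± 0.27, adjusted p = 0.583) and IRF9 (0.33 ± 0.21, adjusted p = 0.415) were not called. The count was 11 without the mut9 library of set 2, 12 without the DAF-mut9 library of set 3, 13 without that of set 1 and 16 without the mut9 library of set 3. Of the 36 other pathway genes 3 were higher and 3, JAK1, IRF8 and PTPN6, were lower.

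Whether replacing tyrosines did the same in the full-length and short forms was tested as the difference of these effects. The sets of tyrosines replaced in these forms overlap but are not the same. Of 42 members 12 had a negative difference, the effect in the short form being the lower, and 0 had a positive one, against 2.82% and 0.504% of all genes, and the median of the difference was -1.13 on the log2 scale. SAMD9L (-3.00 ± 0.32, adjusted p = 1.39e-05), GBP2 (-2.85 ± 0.50, adjusted p = 0.00198), OAS2 (-2.71 ± 0.74, adjusted p = 0.0463) and TRIM22 (-2.71 ± 0.64, adjusted p = 0.0185) led. All 12 were called higher with DAF than with WT-EF, whereas with DAF-mut9 against mut9 IFITM2 (-0.16 ± 0.39, adjusted p = 0.89), IFITM3 (0.26 ± 0.27, adjusted p = 0.673), GBP2 (0.38 ± 0.35, adjusted p = 0.609) and IRF1 were not called. The difference also takes in the starting levels, since 33 of 42 members were higher with mut9 than with WT-EF (median 1.39). Against Δ22, 0 members were called with DAF and 0 with DAF-mut9. A weaker action in the short form was not tested apart from its higher starting level. SAMD9L was 131, 53.7 and 91.1 CPM with mut9, where it was already above WT-EF (2.75 ± 0.24, adjusted p = 1.72e-06). GBP2, a relative of GBP1, was 15.9, 12 and 7.34 CPM with WT-EF, 96.5, 137 and 98.9 CPM with DAF, 76.3, 49.6 and 48.6 CPM with mut9 and 62.9, 88.1 and 79.3 CPM with DAF-mut9. Of these GBP2 groups only mut9 and DAF-mut9 overlapped. The count was 24 without the mut9 library of set 2, 4 without that of set 1, 5 without the WT-EF or the DAF library of set 3, 6 without the DAF-mut9 library of set 1 or 2 and 7 without the WT-EF library of set 1.

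The order of the group means was much alike across the members. iLuc was the lowest group in 41 of 42, WT-EF was the second lowest in 40 and mut9 the third lowest in 38, and all 3 held these places in 37. How often all genes show this order was not counted. The place of mut9 was least clear in set 1, where its member median against Δ22 was -0.1, and -1.69 and -0.57 in sets 2 and 3. The highest mean was in iEF for 18 members, in DAF-mut9 for 15, in DAF for 7 and in Δ22 for 2. Between iEF and the other 3 of these groups, and between Δ22 and DAF or DAF-mut9, at most 7 members were called in any comparison of the reported fit. Few genes of any kind were called in these comparisons, at most 4.02% of all genes in either direction, so the small count does not show likeness of the members. DAF and DAF-mut9 were not tested against each other.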

How the data were processed

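RNA-seq libraries of 21 A673 samples in 7 groups of 3 were used, with groups and replicate sets from the labels. Per the labels the total RNA was prepared with ScriptSeq. The authors aligned reads to hg19 with STAR (2.5.1b in the submitters' processing notes) and deposited the raw count of each gene from htseq-count. Neither the annotation used nor the strand setting is given in the sources used here. The authors also deposited counts adjusted for replicate set with ComBat, a signal that was used as an alternative only. The deposited table of the authors' own DESeq2 comparisons (log2 fold changes and p-values) was not used. The table's 5 htseq-count summary lines were empty.

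In R 4.3.3 genes averaging 1 or more counts over the libraries (30549 of 57820) were fitted with edgeR 4.0.16, TMM scaling and terms for group and replicate set, over all 21 libraries. Genes with a Benjamini-Hochberg adjusted p below 0.05 in the quasi-likelihood test were called. The block was used because the study adjusted for replicate set. Same-numbered libraries deviated together weakly (median r = 0.124 over 63 pairs, against -0.0767 over 126 pairs of different number). Named genes were the leading called members of each comparison with a mean of at least 1 CPM and 1 direction in all sets, 8 fixed regulators and markers, and the most changed pathway genes. The members, lists and tests were chosen with earlier results of these data known, and 3 comparisons with Δ22 were added later. IKBKE and PECAM1 were not matched. Exon overlaps are from a GENCODE annotation on GRCh37. Errors after ± are standard errors of log2 fold changes, or the SD where stated. One CPM stood for 32 to 45.2 counts, and no replicate pair agreed within counting noise (chi-square per degree of freedom 13.5 or more in 21 pairs). On simulated data for iLuc against iEF, with 200 genes changed, 51.5% of 2-fold and 91% of 4-fold changes were recovered. Alternatives were DESeq2 1.42.0, no replicate block, RLE factors, other filters, the compared groups only, the ComBat signal with limma 3.58.1 (log2 of the value per 1 M plus 0.5) and leaving out each library. A gene of the pathway list is counted there but is not reported here.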

Additional observations from a re-analysis of the deposited data

Results flagged for a closer look

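In 12 members the effect of tyrosine replacement differed between the full-length and the short fusion by a test of the difference itself, on the log2 scale and negative where the effect was lower in the short form. The members already stood higher with mut9 than with WT-EF (median log2 fold change 1.39), and this starting level enters the difference. IFITM2, IFITM3, GBP2 and IRF1 were not called between DAF-mut9 and mut9. The differences were -3.00 for SAMD9L (adjusted p = 1.39e-05), -2.85 for GBP2 (0.00198), -2.71 for OAS2 (0.0463), -2.71 for TRIM22 (0.0185), -2.40 for IFITM2 (0.0176) and -2.04 for SAMD9 (0.000663). They were -1.96 for HERC6 (0.022), -1.88 for GBP1 (0.00169), -1.78 for IFITM3 (0.0116), -1.59 for IRF1 (0.0439), -1.47 for IFIT3 (0.0114) and -0.79 for DTX3L (0.0398). All p-values are adjusted by Benjamini-Hochberg over the 30549 genes of the edgeR fit. The libraries on which these counts rest are given with the comparison, and the cause was not tested.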

How the results depend on the processing

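The counts of members lower in iLuc and in WT-EF than in iEF, of those higher in DAF than in WT-EF and of those lower in WT-EF than in Δ22 stayed within 1.5 times their reported value in every alternative. Leaving out single libraries gave 11 to 29 members called for mut9 against iEF, 0 to 4 for DAF-mut9 and 0 to 1 for Δ22 against iEF, 14 to 39 for mut9 against WT-EF, 11 to 31 for DAF-mut9 against mut9, 1 to 25 for mut9 against Δ22 and 4 to 24 for the difference of tyrosine effects. With no low-count filter, against iEF, the counts were 18 for Δ22, 11 for DAF-mut9 and 20 for DAF, and they were 31 for mut9, 10 for DAF and 2 for DAF-mut9 against Δ22, and 33 for the difference. With the ComBat signal they were 11 for mut9, 4 for DAF and 1 for DAF-mut9 against iEF, 20 for mut9 against WT-EF, 11 for DAF-mut9 against mut9, 4 for mut9 against Δ22 and 4 for the difference. With only the compared groups they were 11 for Δ22 against iEF and 19 for mut9 and 8 for DAF against Δ22. DESeq2 gave 5 for DAF-mut9 against iEF and 2 for DAF against Δ22. The fit with no replicate block gave 1 for DAF-mut9 against iEF and moved no other count of members by over 1.5 times. Single values changed sign in 52 refits of 21 results, of which 0 were called. STAT2 in Δ22 against iEF (0.00023) was -0.025 with no replicate block, -0.012 with RLE factors and with DESeq2, -0.021 with no filter and -0.0086 with filterByExpr. IRF7 in mut9 against Δ22 (0.0015) was -0.019 with no replicate block, -0.018 with RLE factors, -0.031 with filterByExpr, -0.017 with DESeq2 and -0.068 with the compared groups. IRF7 in DAF against Δ22 (-0.00059) was 0.0016 with RLE factors, 0.012 with no filter and 0.0041 with DESeq2, and STAT2 there was -0.018 with the ComBat signal. Leaving out single libraries, the values in DAF against iEF ran from -0.14 to 0.31 for STAT2, -0.49 to 0.073 for IRF1 and -0.50 to 0.081 for IFIT1. In DAF-mut9 against iEF they ran from -0.02 to 0.40 for STAT2, -0.10 to 0.17 for IRF9, -0.64 to 0.10 for MX1, -0.35 to 0.19 for IRF1, -0.44 to 0.0096 for IRF7 and -0.0028 to 0.44 for OAS1. In Δ22 against iEF they ran from -0.14 to 0.28 for STAT2, -0.12 to 0.26 for ISG15 and -0.19 to 0.018 for OAS1, and in WT-EF against iLuc from -0.023 to 0.70 for IRF1. Against Δ22 they ran from -0.39 to 0.30 for IRF7 in mut9, from -0.41 to 0.19 for IRF7, -0.15 to 0.13 for STAT2 and -0.72 to 0.21 for MX1 in DAF, and from -0.21 to 0.051 for IRF9 in DAF-mut9. For the difference they ran from -0.54 to 0.089 for ISG15, -0.64 to 0.12 for IRF7 and -0.31 to 0.074 for IRF9. The cause of these changes was not tested. With 3 libraries a group, changes near 2-fold were often not recovered in the simulation. It changed 200 genes, whereas 12560 were called between iLuc and iEF, so its recovery is not that of these members. Members not called are undecided.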
